A study of Oryza sativa with 12 samples.

Results

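The genes described here are the 71 rows annotated with the DNA replication pathway among the 38867 genes of a rice (Oryza sativa) RNA-seq table. They were chosen by the exact pathway term in the deposited annotation, with no use of expression values in the rule. The RNA came from the shoot apical meristem (SAM) of myb110 mutants and of wild-type (WT) plants, 1 month after transplanting into the field, with 3 libraries per genotype and 20 plants pooled per library. The labels give neither the kind of myb110 mutation nor the number of mutant lines, and p-values measure the spread between pools. The study also sampled leaf blade, but the columns of that table carry names that no sample label explains, so the blade is not analysed here. Its annotation holds 74 rows with the same term, 63 of them shared with the SAM table.

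Chromosomal DNA is copied by a set of conserved machines. The MCM proteins form the ring helicase that is loaded at origins and later unwinds the fork, replication protein A (RPA) covers the exposed single strands, and polymerase alpha with primase starts each new strand. Replication factor C (RFC) then loads the sliding clamp PCNA, polymerases delta and epsilon extend the strands, and FEN1, DNA2, RNase H2 and DNA ligase trim and join the lagging-strand fragments. In plants these genes are most active in dividing tissue such as the shoot meristem, and E2F transcription factors are known to switch many of them on before S phase.

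Total deposited counts ran from 14112966 to 18896372 per library, and 23167 genes passed the filter on low counts. The locus taken here as MYB110 (Os10g0478300), an assignment from general knowledge, held 0, 0 and 0 estimated counts in the myb110 libraries, against 5.67, 0 and 1.47 in the WT libraries, too few to check the genotype labels. MADS15, a flowering gene named beside MYB110 in the study's title, held 3, 3 and 0 counts in the myb110 libraries and 44, 52 and 48 in the WT libraries. Of 5 meristem KNOX genes, 4 passed the filter and OSH43 did not. OSH1 fell by 0.09 ± 0.03 on the log2 scale (edgeR adjusted p = 0.0337), a call not made by DESeq2 or limma, and OSH15, OSH71 and OSH6 did not pass the test. The KNOX list summed to between 309 and 326 FPKM in the myb110 libraries and between 314 and 323 FPKM in the WT libraries (FPKM, the deposited level per gene length and library size). In pooled tissue, fewer cells of a type and less RNA per cell cannot be told apart.

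The replication genes were called about as often as genes in general. Of the 71 rows, 66 passed the filter on low counts, and 10 rose, 5 fell and 51 did not pass in myb110 against WT (edgeR quasi-likelihood test, Benjamini-Hochberg adjusted p below 0.05). That is 22.7% of the tested members, beside 22.6% of all tested genes, of which 10.9% rose and 11.7% fell. The median log2 change was 0.03 over the members and 0.00127 over all genes, and the median absolute change was 0.08 over the members and 0.15 over all genes. A change of at least 1.5-fold was called for 2 members, MSTRG.29253 and Os07g0190600, or 3.03% of those tested, beside 6.71% of all tested genes. The libraries of the genotypes did not overlap at 22 members, 33.3% of those tested, beside 36.1% of all tested genes. The count of called members was 9 without WT replicate 1 and 9 in limma on log2(FPKM + 0.1), and the calls that were lost are named beside each gene. Of the 15 calls, 9 held under all alternative settings that gave a value.

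**Figure D1:**
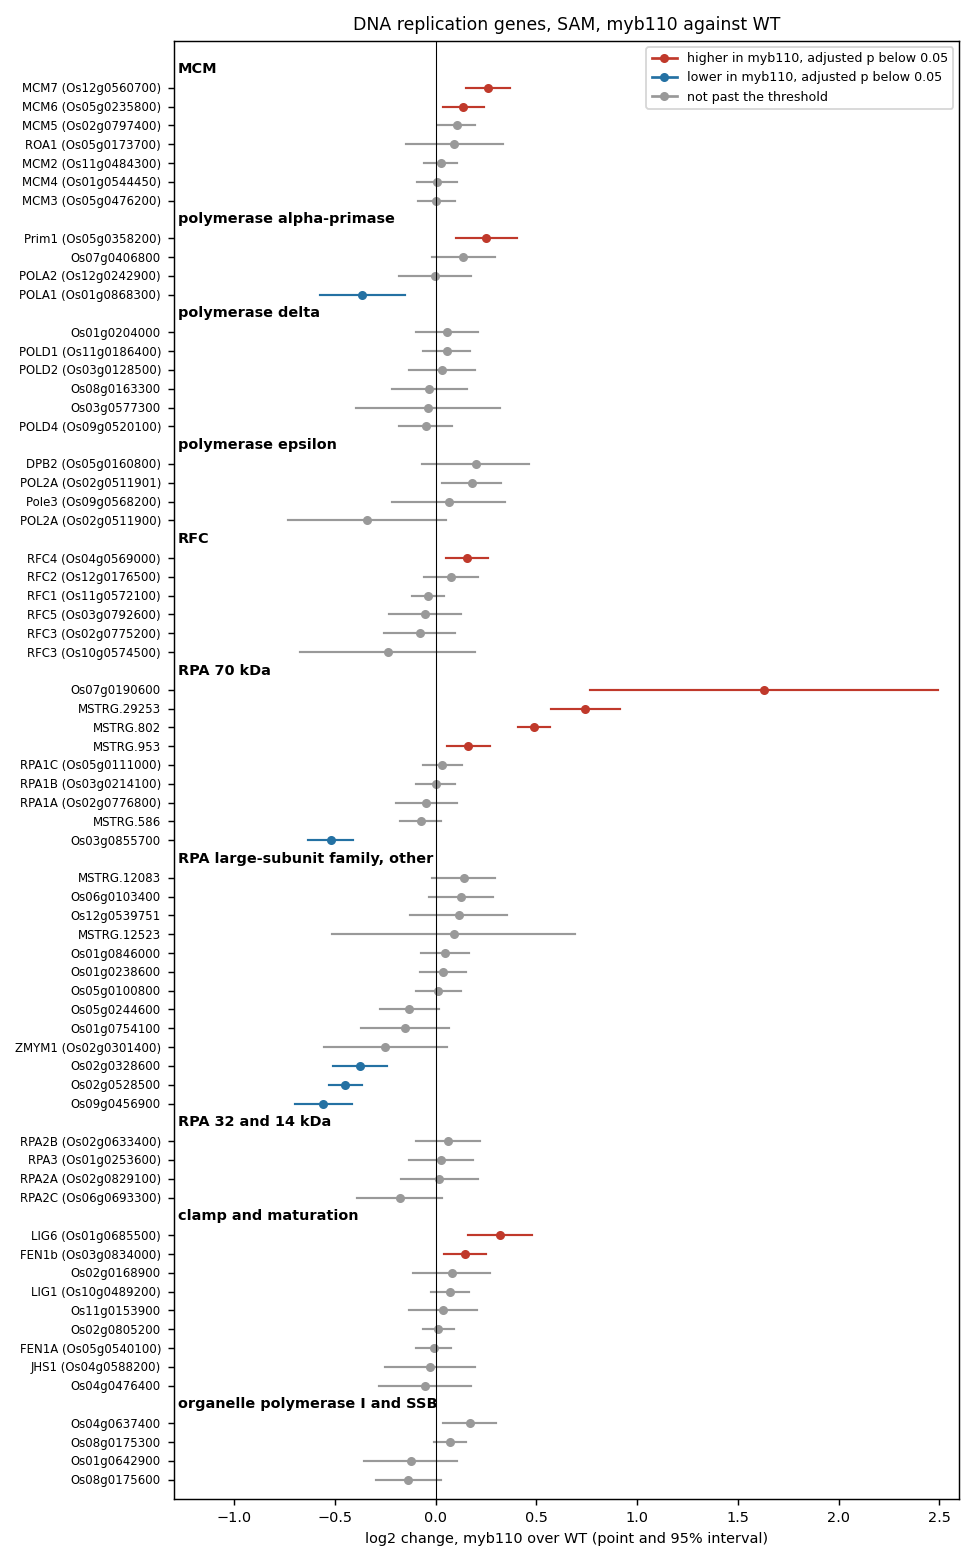
Log2 change of the 66 tested DNA replication genes in the SAM, myb110 over WT, with 95% intervals, grouped by subunit. Most points lie near 0, and the 7 largest changes are in rows with the orthology number of the RPA large subunit.

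Most of the genes that did not pass had intervals within 1.5-fold. Of the 51 members that did not pass, 48 had a 95% interval of the change that lay within 1.5-fold in either direction. The 3 others were a second RFC3 row (Os10g0574500), one of the polymerase epsilon rows (Os02g0511900) and MSTRG.12523, an assembled gene outside the reference loci. They had means of 3.75, 3.82 and 2.16 CPM in myb110, in that order, and 4.47, 4.80 and 2.03 CPM in WT (CPM, counts scaled to a common total over tested genes). An interval within 1.5-fold (0.585 on the log2 scale) does not exclude smaller changes. The called members outside the RPA large-subunit rows changed by 0.14 to 0.36 in absolute log2.

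The MCM helicase genes were abundant and close to each other in level. MCM2 averaged 39.2 ± 1.82 FPKM in myb110 and 38.6 ± 0.699 FPKM in WT (SD, n = 3 each), and MCM7, the lowest of MCM2 to MCM7, averaged 23.8 ± 1.12 FPKM in myb110 and 19.8 ± 0.410 FPKM in WT. The highest mean FPKM of these genes was 1.65 times the lowest in myb110 and 1.94 times in WT. The summed FPKM of MCM2 to MCM7 was 178, 183 and 185 in the myb110 libraries and 173, 175 and 170 in the WT libraries. Every myb110 library was above every WT library in this sum. The FPKM of all genes together also differed, at 691577 to 693313 in the myb110 libraries and 677299 to 687835 in the WT libraries.

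MCM7 and MCM6 rose, and the other MCM genes did not pass. MCM7 (Os12g0560700) had 66.6, 63.8 and 60.5 CPM in the myb110 libraries and 54.0, 53.3 and 51.7 CPM in the WT libraries. The genotypes did not overlap, and MCM7 rose by 0.26 ± 0.05 (SE) on the log2 scale (edgeR adjusted p = 0.000309). MCM6 (Os05g0235800) had 78.6, 84.4 and 86.1 CPM in the myb110 libraries and 75.8, 79.5 and 71.3 CPM in the WT libraries, so that the lowest mutant value lay below the highest WT value. It rose by 0.14 ± 0.05 (edgeR adjusted p = 0.0400).

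The MCM6 call was lost in DESeq2 (adjusted p = 0.109), in limma on FPKM with either pseudocount (0.161 and 0.160), and without myb110 replicate 2 or 3 (0.116 and 0.209) or WT replicate 1 or 3 (0.0749 and 0.207), over a range of 0.0203 to 0.209. The MCM7 call held under all 13 alternative settings.

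MCM5 had 84.3, 92.7 and 87.8 CPM in the myb110 libraries and 80.8, 82.6 and 82.8 CPM in the WT libraries. These values did not overlap, yet its log2 difference of 0.10 ± 0.05 did not pass (edgeR adjusted p = 0.103). MCM2, MCM3 and MCM4 had log2 differences of 0.03 ± 0.04, 0.00293 ± 0.05 and 0.01 ± 0.05, and none of them passed. Their 95% intervals ran from -0.06 to 0.11, from -0.09 to 0.09 and from -0.09 to 0.11. A further row with the MCM3 orthology number, Os05g0173700, annotated ROA1 and described as a partial sequence, was lower in level (11.2 FPKM in myb110 and 10.54 in WT) and did not pass (0.09 ± 0.12).

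Within each library, MCM7 was set against the mean FPKM of MCM2 to MCM6, a measure that does not depend on library scaling. This ratio was 0.811, 0.751 and 0.695 in the myb110 libraries and 0.662, 0.643 and 0.643 in the WT libraries. The means were 0.752 ± 0.0580 in myb110 and 0.649 ± 0.0111 in WT (SD, n = 3 each). MCM7 was nearer to the other subunits in every mutant library than in any WT library. The ratio was formed after the MCM7 change was known and is given as a description.

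Polymerase alpha and primase lay down the first stretch of each strand. Of their rows, Prim1 rose and POLA1 fell in edgeR, and the others did not pass. The counts of POLA1 were completed by those of a neighbouring locus, which held the larger share, and the sum of the 2 did not pass. Prim1 (Os05g0358200), the small catalytic subunit of primase, had 33.3, 31.4 and 34.05 CPM in the myb110 libraries and 25.8, 27.7 and 29.4 CPM in the WT libraries. It rose by 0.25 ± 0.07 on the log2 scale (edgeR adjusted p = 0.0124), with no overlap between the genotypes. Leaving out WT replicate 1 ended that call (0.0694), as did leaving out myb110 replicate 3 (0.0671) and limma with either pseudocount (0.0722 and 0.0718), over a range of 0.00855 to 0.0722. The large primase subunit (Os07g0406800) had a log2 difference of 0.14 ± 0.08 and the B subunit POLA2 of -0.00308 ± 0.09, and neither passed.

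POLA1 (Os01g0868300), the catalytic subunit of polymerase alpha, had the lowest level of this group, at 2.57 FPKM in myb110 and 3.32 FPKM in WT. It had 12.7, 13.2 and 12.1 CPM in the myb110 libraries and 17.5, 15.3 and 16.1 CPM in the WT libraries, and fell by 0.36 ± 0.10 (edgeR adjusted p = 0.00880). The call was lost without WT replicate 1 (0.0521) and in limma on FPKM (0.136 and 0.129), over a range of 0.00716 to 0.136. Its estimated counts were fractions in every library, and each fraction was completed to a whole number by the neighbouring locus Os01g0868400, for which the table gives no description. The POLA1 row held 18.97%, 20.8% and 18.5% of the counts of the pair in the myb110 libraries and 27.97%, 24.0% and 26.6% in the WT libraries. Counted as 1 unit, the pair had 65.3 ± 1.72 CPM in myb110 and 62.3 ± 1.55 CPM in WT, and its change of 0.07 ± 0.05 did not pass and had the opposite sign (edgeR adjusted p = 0.371). Os01g0868400 itself rose by 0.19 ± 0.06 (edgeR adjusted p = 0.0122). Since the POLA1 row held the smaller share of the counts, the sum cannot tell whether POLA1 fell.

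No subunit of the polymerases that extend the strands passed in edgeR. At an unadjusted p below 0.05 edgeR gave 0 delta rows and 1 epsilon row, and DESeq2 and limma made 0 calls in either group. All 6 delta rows, among them the catalytic subunit POLD1 and the small subunits POLD2 and POLD4, had log2 differences of no more than 0.06 in either direction. POLD1 averaged 55.9 ± 2.69 CPM in myb110 and 53.8 ± 3.58 CPM in WT. The orthology number of the POLD3 subunit is carried by Os01g0204000, which the description calls an IWS1 homolog, so its identity as a polymerase subunit is uncertain. The 4 epsilon rows, which include POL2A for the catalytic subunit, DPB2 for the B subunit and Pole3, ranged from -0.34 to 0.20.

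POL2A is spread over 2 neighbouring rows. The larger of them, Os02g0511901, had a log2 difference of 0.18 ± 0.07 with separate genotypes (edgeR adjusted p = 0.0708), and Os02g0511900, with 3.82 CPM in myb110 and 4.80 CPM in WT, had a log2 difference of -0.34 ± 0.19 (0.224), also with separate genotypes. Neither passed.

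**Figure D2:**
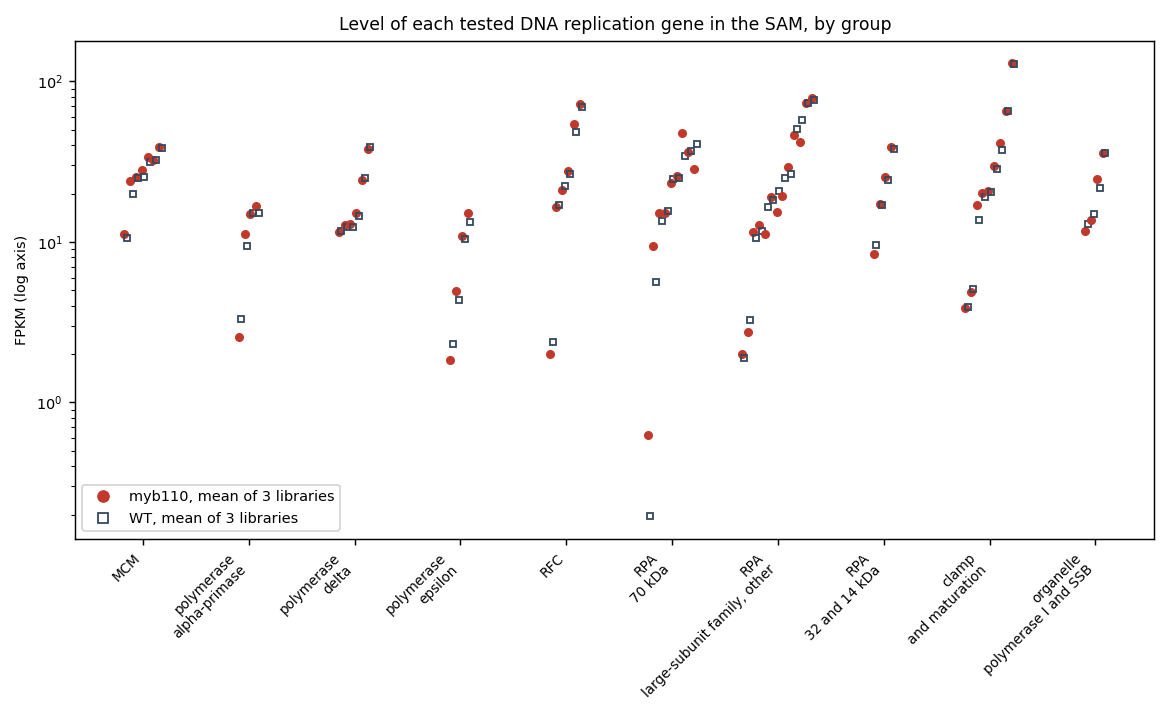
Mean FPKM of each tested DNA replication gene in the SAM on a log axis, myb110 as filled circles and WT as open squares, by subunit group. PCNA, in the clamp and maturation group, was highest at 129 FPKM in myb110 and 128 in WT, and Os07g0190600 was lowest.

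Replication was well represented in this tissue. The median WT level of the tested members was 19.5 FPKM, beside 10.2 FPKM over all tested genes, and 54 of the 66 lay above that overall median. PCNA (Os02g0805200), the sliding clamp, was the most abundant member in both genotypes, with 129 ± 2.44 FPKM in myb110 and 128 ± 5.09 FPKM in WT (SD, n = 3 each). Its CPM were 144, 149 and 145 in the myb110 libraries and 145, 138 and 149 in the WT libraries. The genotypes overlapped, and the change of 0.01 ± 0.04 had a 95% interval from -0.06 to 0.09.

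Of the clamp loader genes, RFC4 rose and the other 5 RFC rows did not pass. RFC4 (Os04g0569000) had 69.8, 71.6 and 72.65 CPM in the myb110 libraries and 60.05, 66.85 and 64.9 CPM in the WT libraries, a rise of 0.16 ± 0.05 (edgeR adjusted p = 0.0220) without overlap. The call was lost in DESeq2 (adjusted p = 0.0648), in limma on log2(FPKM + 0.1) (0.0502), and without myb110 replicate 2 or 3 (0.0566 and 0.0987) or WT replicate 1 (0.138), over a range of 0.0165 to 0.138. RFC1, the large subunit and the member of this group with the highest level, had 71.8 FPKM in myb110 and 69.4 FPKM in WT. In CPM it was 122 ± 3.15 in myb110 and 125 ± 3.94 in WT, a change of -0.04 ± 0.04. RFC2 had a log2 difference of 0.08 ± 0.06, RFC3 of -0.08 ± 0.08 and RFC5 of -0.05 ± 0.09.

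Among the genes that finish the lagging strand, LIG6 and FEN1b rose and the other 7 rows of the clamp and maturation group, PCNA included, did not pass. LIG6 (Os01g0685500), which carries the orthology number of DNA ligase I but a symbol for a plant ligase studied mainly in DNA repair in Arabidopsis, had 30.6, 28.2 and 31.98 CPM in the myb110 libraries and 24.5, 24.1 and 24.4 CPM in the WT libraries. It rose by 0.32 ± 0.08 (edgeR adjusted p = 0.00224) without overlap, and the call held under all 13 alternative settings. LIG1, the replicative ligase, averaged 91.4 ± 3.56 CPM in myb110 and 86.8 ± 4.91 CPM in WT and did not pass (0.07 ± 0.05).

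FEN1b (Os03g0834000), a flap endonuclease that removes displaced primers, had 67.2, 66.1 and 68.2 CPM in the myb110 libraries and 58.2, 64.0 and 59.6 CPM in the WT libraries. It rose by 0.15 ± 0.05 (edgeR adjusted p = 0.0353). The call was lost in DESeq2 (0.0982), in limma on FPKM (0.0744 and 0.0739), and without any 1 of the myb110 libraries (0.0788, 0.0537 and 0.128) or WT replicate 1 or 3 (0.142 and 0.0975), over a range of 0.0164 to 0.142. Its homolog FEN1A had 64.8 FPKM in myb110 and 65.5 FPKM in WT and had a log2 difference of -0.01 ± 0.04. The nuclease and helicase DNA2, annotated JHS1, and the RNase H2 subunits had log2 differences between -0.05 and 0.08, and none passed.

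The largest changes of the pathway were in rows with the orthology number of the RPA large subunit. None of them was in the rows with the symbols RPA1A, RPA1B and RPA1C. Of 71 members, 27 rows carry this number, and 22 of them were tested. In 18 of the 27 rows the description names no 70 kDa subunit, and that of Os02g0301400 names a zinc finger protein. The identity of these 18 as RPA subunits is uncertain. Among the tested rows with the number 4 rose and 4 fell, 8 of 22 or 36.4%, beside 22.6% of all tested genes. Of the 44 other tested members 7 were called, or 15.9%. These differences were not tested, and the 8 calls include MSTRG.802 and MSTRG.953, whose counts are shared with each other. The 7 largest absolute changes among all members were in these rows, and 7 of the 8 calls held under all alternative settings that gave a value. RPA1A, RPA1B and RPA1C, described as subunits A, B and C of 70 kDa, had log2 differences of -0.05 ± 0.07, -0.000412 ± 0.05 and 0.03 ± 0.05, and none passed. RPA1B averaged 81.1 ± 3.62 CPM in myb110 and 81.3 ± 2.06 CPM in WT.

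The middle and small RPA subunits did not pass either in edgeR, with 0 at an unadjusted p below 0.05 and 0 calls by DESeq2 or limma. RPA2A, RPA2B and RPA2C, of 32 kDa, had log2 differences of 0.02 ± 0.09, 0.06 ± 0.08 and -0.18 ± 0.10. RPA3, of 14 kDa, had a log2 difference of 0.03 ± 0.08 and had 38.8 FPKM in myb110 and 38.0 FPKM in WT.

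**Figure D3:**
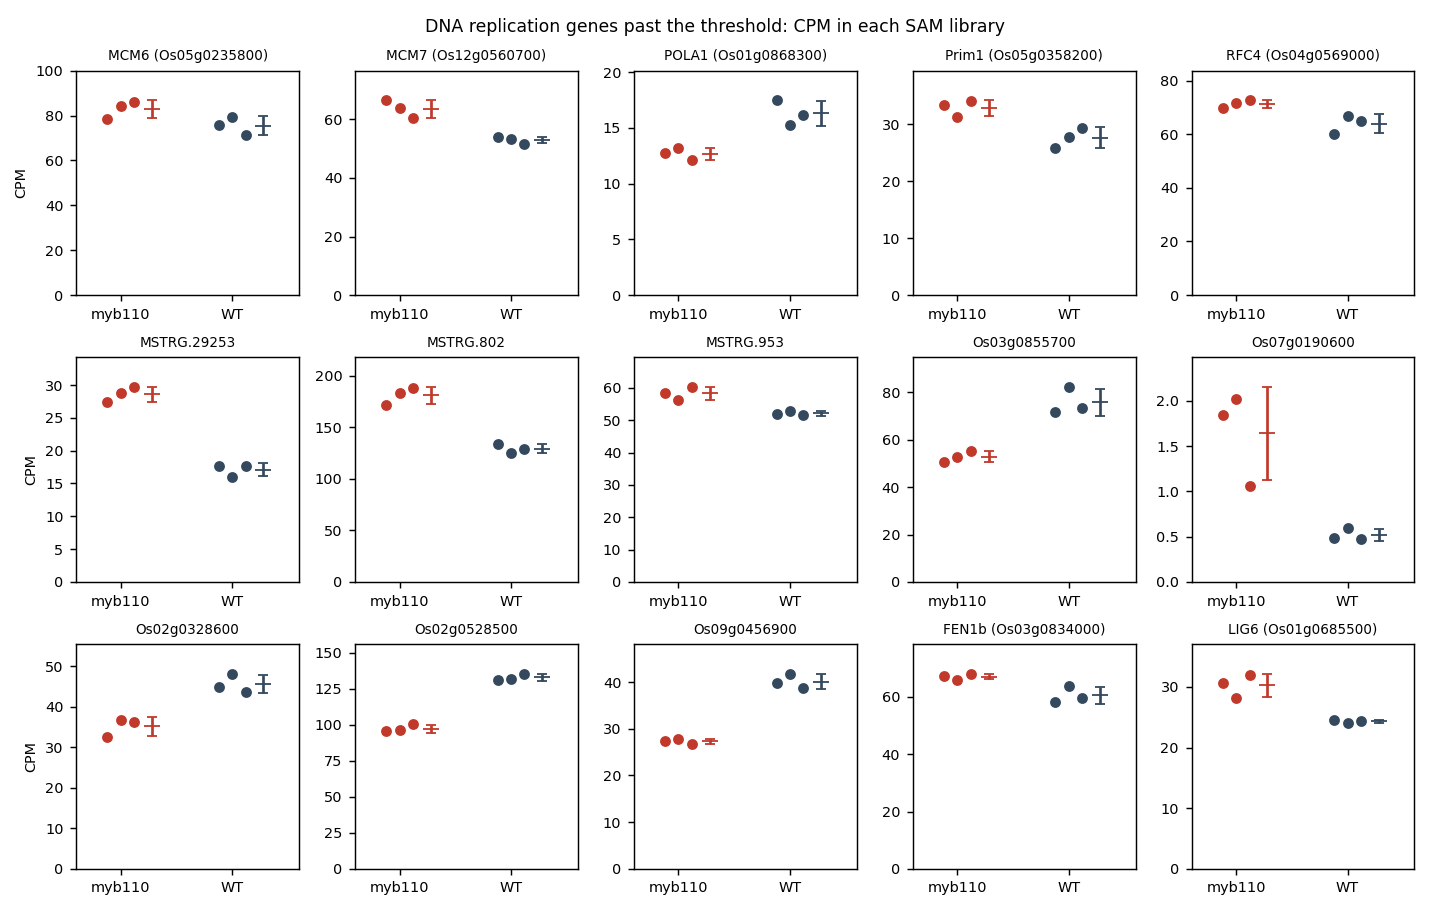
CPM of the 15 DNA replication genes past the threshold in each of the 3 myb110 and 3 WT SAM libraries, with the mean and SD beside the points. At 14 of the 15 genes the genotypes did not overlap, MCM6 being the exception, but these genes were chosen by the test on the same libraries. Over all tested members the share without overlap was 33.3%, beside 36.1% of all tested genes.

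All 4 rows with the large-subunit number that fell had whole counts and separate genotypes. Of these, Os03g0855700 alone is described as an RPA subunit of 70 kDa. Os02g0528500, described as replication protein-like, had 95.4, 96.1 and 100.5 CPM in the myb110 libraries and 131, 132 and 136 CPM in the WT libraries. It fell by 0.45 ± 0.04 on the log2 scale (edgeR adjusted p = 2.11e-11). Os03g0855700, described as a B subunit of 70 kDa, had 50.5, 52.8 and 55.2 CPM in the myb110 libraries and 71.6, 82.4 and 73.4 CPM in the WT libraries, and fell by 0.52 ± 0.06 (1.96e-09). Per length, Os02g0528500 had 42.1 FPKM in myb110 and 57.1 FPKM in WT, and Os03g0855700 had 28.4 FPKM in myb110 and 40.8 FPKM in WT.

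Os09g0456900, with a description that gives no function, had 27.3, 27.9 and 26.7 CPM in the myb110 libraries and 39.9, 41.8 and 38.7 CPM in the WT libraries. It fell by 0.56 ± 0.07 (edgeR adjusted p = 6.12e-08). Os02g0328600, described as a partial sequence, had 32.5, 36.8 and 36.4 CPM in the myb110 libraries and 45.02, 48.2 and 43.8 CPM in the WT libraries, and fell by 0.37 ± 0.07 (3.76e-05). The calls of all 4 rows held under the 13 alternative settings.

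Of the large-subunit rows that rose, Os07g0190600 had the largest change and very few counts. It held 26, 29 and 20 counts in the myb110 libraries and 7, 11 and 8 in the WT libraries, which is 1.85, 2.02 and 1.06 CPM in myb110 and 0.483, 0.594 and 0.472 CPM in WT. The genotypes were separate, and it rose by 1.63 ± 0.43 (edgeR adjusted p = 0.00424), with a 95% interval from 0.76 to 2.49. The size depended on the scale, with 0.43 in limma on log2(FPKM + 1), and a minimum count of 30 removed the row.

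The other 3 rows that rose were assembled genes whose counts were shared with a row of the same description. MSTRG.802 and MSTRG.953 carry the same description, a B-like large subunit, and their fractional counts added to whole numbers in every library. MSTRG.802 had 172, 184 and 188 CPM in the myb110 libraries and 134, 125 and 129 CPM in the WT libraries, and rose by 0.49 ± 0.04 (edgeR adjusted p = 6.51e-13). MSTRG.953 rose by 0.16 ± 0.05 (0.0232), with 58.4 ± 1.99 CPM in myb110 and 52.2 ± 0.765 CPM in WT. Added together, the rows had 239 ± 8.94 CPM in myb110 and 181 ± 4.04 CPM in WT, and the pair rose by 0.40 ± 0.03 (3.28e-12), so that the rise was also present in the sum.

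The call of MSTRG.953 alone was lost in DESeq2 (adjusted p = 0.0739), in limma on FPKM (0.130 and 0.131), and without myb110 replicate 1 or 3 (0.0589 and 0.133) or WT replicate 1 or 3 (0.0542 and 0.0660), over a range of 0.0219 to 0.133.

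MSTRG.29253 and MSTRG.586, both described as D subunits of 70 kDa, formed another such pair. MSTRG.29253 had 27.4, 28.7 and 29.7 CPM in the myb110 libraries and 17.7, 16.1 and 17.7 CPM in the WT libraries, and rose by 0.74 ± 0.08 (edgeR adjusted p = 9.49e-09), whereas MSTRG.586 had a log2 difference of -0.07 ± 0.05 and did not pass. MSTRG.29253 held 30.2%, 30.6% and 31.6% of the pair's counts in the myb110 libraries and 20.6%, 18.9% and 21.2% in the WT libraries. The pair as 1 unit had 92.8 ± 1.93 CPM in myb110 and 84.7 ± 1.09 CPM in WT and rose by 0.13 ± 0.04 (0.0244), a much smaller change than that of MSTRG.29253 alone. The sums of pairs were chosen after seeing the data.

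**Figure D4:**
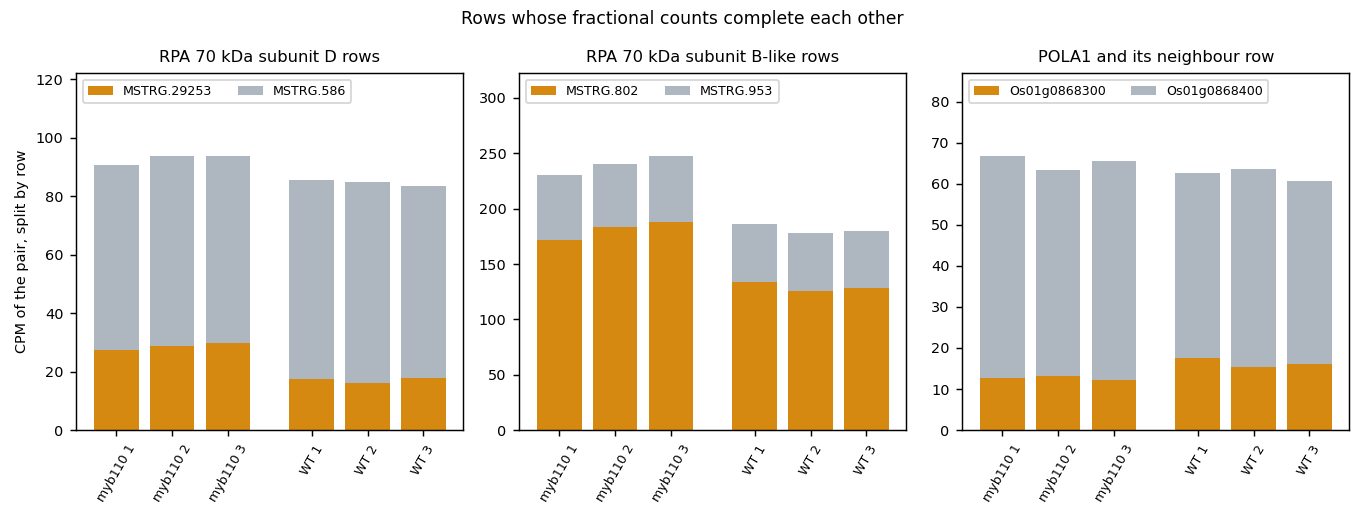
CPM of 3 pairs of rows whose fractional counts complete each other, in the 3 myb110 and 3 WT SAM libraries, with bars split by row. The B-like RPA pair is higher in myb110 as a whole, while the POLA1 row holds a smaller share of its pair in myb110 and MSTRG.29253 a larger share.

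Sharing of reads was limited in the rest of the pathway. Of the 71 members, 60 had whole counts in every library and 11 had a fraction in at least 1. For 8 of these 11, a row that completed the fractions was found (to within 0.01 of a whole number). The further pairs were the organelle polymerase I rows Os08g0175300 and Os08g0175600, and POLA2 with Os12g0242975. As units these pairs had log2 differences of 0.04 ± 0.04 and -0.02 ± 0.08 and did not pass. Taking all pairs as 1 unit, 9 members rose and 4 fell of 63.

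Polymerase I and the single-stranded DNA-binding protein, which copy and cover the organelle genomes, did not pass in edgeR, with 1 row at an unadjusted p below 0.05 and 0 calls by DESeq2 or limma. Os08g0175300, described as the plastid enzyme, averaged 133 CPM in myb110 and 126 CPM in WT and had a log2 difference of 0.07 ± 0.04. The similar Os04g0637400 had a log2 difference of 0.17 ± 0.06 (edgeR adjusted p = 0.0536), the single-stranded DNA-binding protein gene of -0.12 ± 0.11 and Os08g0175600, described as mitochondrial, of -0.13 ± 0.08.

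The other 13 tested rows with the large-subunit number but no description as an RPA subunit of 70 kDa included the 3 that fell and 10 that did not pass. This group holds the most abundant RPA-type row, Os01g0238600, an OB-fold protein gene with 78.5 FPKM in myb110 and 76.7 FPKM in WT, which had a log2 difference of 0.04 ± 0.06. The 5 rows of the pathway below the filter were all of this kind, and 4 of them had 0 counts in every library. One of the 4, Os07g0418100, gives its name to the description of MSTRG.12083, an assembled gene that was tested and had a log2 difference of 0.14 ± 0.08. The fifth, Os01g0630900, had 1 count in 1 library.

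Summed by group, the levels differed by little between genotypes. The RPA-type rows without a description as a 70 kDa subunit summed to 360, 361 and 368 FPKM in the myb110 libraries and 379, 402 and 395 FPKM in the WT libraries, lower in every mutant library. Polymerase alpha with primase summed to 44.7, 45.1 and 46.6 FPKM in the myb110 libraries and 43.9, 42.1 and 42.9 FPKM in the WT libraries, and polymerase epsilon to 32.7, 34.3 and 31.4 FPKM in the myb110 libraries and 29.98, 31.1 and 29.9 FPKM in the WT libraries, both higher in every mutant library. The FPKM of all genes together was also higher in every myb110 library, at 691577 to 693313, beside 677299 to 687835 in the WT libraries. The sums were not corrected for this, and its part in them was not tested. The whole pathway summed to 1651 ± 26.0 FPKM in myb110 and 1640 ± 22.7 FPKM in WT (SD, n = 3 each), with overlap. The genotypes also overlapped in the sums of the RFC, 70 kDa RPA, and 32 and 14 kDa RPA groups. So did those of the clamp and maturation, polymerase delta and organelle groups.

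Many members serve more than copying. In the deposited annotation 53 of the 71 rows also belong to nucleotide excision repair, 47 to mismatch repair, 41 to homologous recombination and 18 to base excision repair, and 15 belong to no other pathway. By locus number the 65 reference loci lie on all 12 chromosomes, with at most 12 on 1 of them.

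Genes around the fork that the pathway term leaves out were read from the same fit, in lists matched by symbol and description. Of 13 tested origin licensing and firing genes, 1 rose (7.69%, beside 10.9% of all tested genes), 12 did not pass and none fell, and the median log2 change was -0.04. The match by text also took in MCM8, MCM9 and TOPBP1 (Os11g0191300), and TOPBP1 is counted again in the fork protection list below. The gene that rose was the GINS subunit gene gins3 (PSF3, Os08g0274700), part of the active helicase, which averaged 51.5 CPM in myb110 and 45.6 CPM in WT and was higher by 0.17 ± 0.06 (edgeR adjusted p = 0.0280). The call was lost in DESeq2 (0.0835), and without myb110 replicate 1 or 2 (0.0621 and 0.0982) or WT replicate 1 or 3 (0.134 and 0.0511), over a range of 0.0222 to 0.134. Its counts were also fractions in all 6 libraries, completed by Os08g0274150, which held between 9.92 and 20.98 counts per library. CDC6, which helps to load the MCM ring, had a log2 difference of 0.14 ± 0.08, and the CDC45 rows Os11g0128400 and Os12g0124700 of -0.25 ± 0.11 and -0.30 ± 0.13, without passing. Both CDC45 rows had separate genotypes and an unadjusted edgeR p below 0.05 (0.0356 and 0.0267). In WT replicate 3 alone their counts were fractions, 219.15 and 168.85, that complete each other. The rows may therefore share reads, and the part of this in their values was not tested. DESeq2 and limma gave 0 lower rows of this list at that unadjusted level.

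Of 6 origin recognition complex genes, a list added after the table had been seen, ORC4 (Os01g0683400) rose and 5 did not pass. That is 16.7% of the list, beside 10.9% of all tested genes that rose. ORC4 had 23.2, 23.1 and 20.4 CPM in the myb110 libraries and 15.8, 16.3 and 14.5 CPM in the WT libraries, a rise of 0.51 ± 0.09 (edgeR adjusted p = 6.23e-05). The genotypes were separate, and the call held under all 13 alternative settings. Another row described as subunit 4, Os01g0683700, averaged 0.443 CPM in myb110 and 0.776 CPM in WT. Its log2 difference of -0.80 ± 0.55 did not pass.

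The 8 tested genes of nucleotide supply, which make the building blocks of DNA, did not pass, with changes from -0.22 to 0.07 and a median of -0.000681. edgeR gave 0 of them at an unadjusted p below 0.05, and DESeq2 and limma made 0 calls. The ribonucleotide reductase genes RNR1 (Os06g0168600) and TSO2 were at 64.9 and 87.7 CPM in myb110 and 63.8 and 88.8 CPM in WT. Of the 6 tested rows matched as chromatin assembly factors 0 passed, 2 (Os01g0896300 and Os05g0553800) were lower at an unadjusted p below 0.05 in edgeR, and DESeq2 and limma made 0 calls. One of the 6 rows, Os12g0233900, matched only through a domain of the same name.

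In the list of fork protection, topoisomerase and cohesion genes, 2 of 11 tested genes rose and 1 fell, or 27.3% called beside 22.6% of all tested genes. One of the copies of CTF7, an acetyltransferase that establishes cohesion behind the fork, had the largest change. This row, Os04g0498900, had 17.9, 16.2 and 18.6 CPM in the myb110 libraries and 2.34, 1.51 and 1.48 CPM in the WT libraries, and rose by 3.33 ± 0.16 (edgeR adjusted p = 9.15e-19). Its counts were fractions in all 6 libraries, as in rows that share reads, and no single row completed them. The part of shared reads in this rise was not tested. The more abundant copy, Os05g0376300, averaged 109 CPM in myb110 and 115 CPM in WT and did not pass (-0.07 ± 0.04). TOP2, which untangles daughter duplexes, fell by 0.10 ± 0.03 (0.00274), with 492 ± 9.90 CPM in myb110 and 527 ± 7.32 CPM in WT. TOP6B rose by 0.17 ± 0.06 (0.0400). That call was lost in DESeq2 (0.121), with replicate number as a block (0.0504), in limma on FPKM (0.148), and without myb110 replicate 2 or 3 (0.0619 and 0.239) or WT replicate 1 or 3 (0.0768 and 0.250), over a range of 0.0154 to 0.250.

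Of 9 tested rows matched as E2F or retinoblastoma-related factors, which control entry into S phase, 1 rose (11.1%, beside the same 10.9%). E2FA (Os12g0158800) averaged 65.3 ± 3.11 CPM in myb110 and 59.1 ± 2.53 CPM in WT and rose by 0.14 ± 0.05 (edgeR adjusted p = 0.0489). The call was lost in DESeq2 (0.129), in limma on FPKM (0.115 and 0.114), and without myb110 replicate 2 or 3 (0.211 and 0.126) or WT replicate 1 or 3 (0.167 and 0.115), over a range of 0.0325 to 0.211. The retinoblastoma-related genes RBR1 and RBR2 had log2 differences of -0.06 ± 0.04 and 0.02 ± 0.05 and did not pass.

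**Figure D5:**
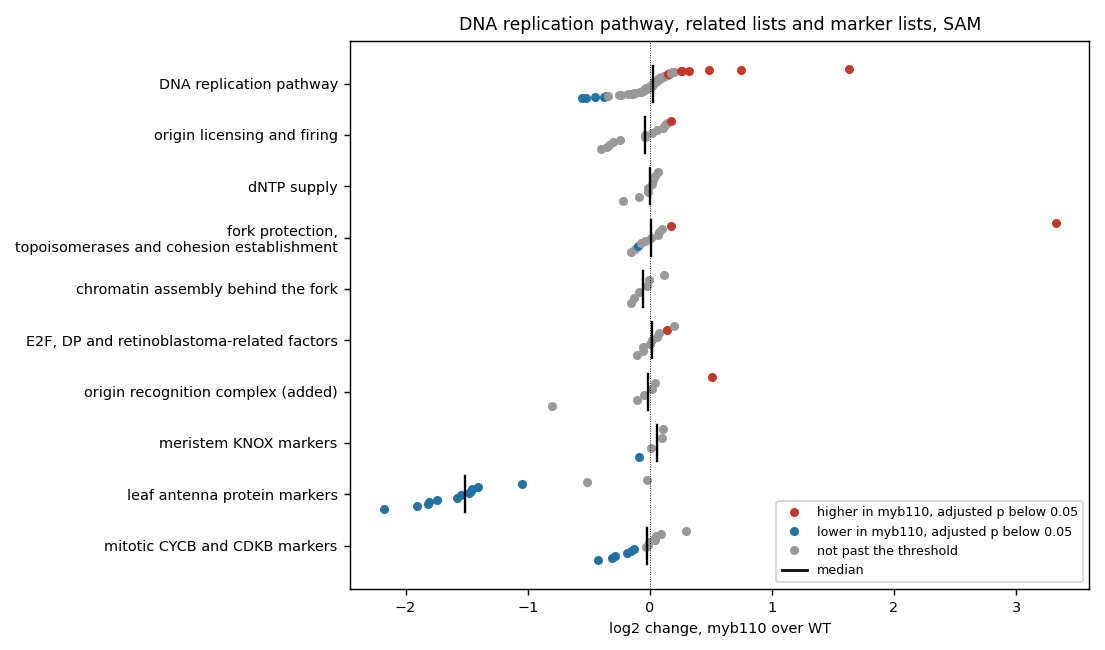
Log2 change, myb110 over WT, of each tested gene of the DNA replication pathway, of 6 related lists and of 3 marker lists in the SAM, with the median of each list as a bar. The antenna protein genes lie far below 0, the pathway and its related lists lie near 0, and the CTF7 copy Os04g0498900 stands apart at 3.33.

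The marker lists were read from the same fit. Of 14 tested mitotic cyclin B and B-type kinase genes, which act after replication, 6 fell and 8 did not pass in edgeR. That is 42.9%, beside 11.7% of all tested genes that fell, a difference that was not tested. DESeq2 called 5 of the 14. The called rows Os02g0801300 and Os05g0493500 had fractional counts in every library, and rows that complete them were not searched for. Os02g0800500, with the same description as Os02g0801300, did not pass (0.04 ± 0.04). The list summed to between 495 and 525 FPKM in the myb110 libraries and between 539 and 552 FPKM in the WT libraries. Of 17 rows of the list, 2 had 0 counts in every library. Of 14 tested leaf antenna protein genes 12 fell (85.7%), with a median log2 change of -1.52, and the list summed to between 272 and 292 FPKM in the myb110 libraries and between 813 and 886 FPKM in the WT libraries. No row of the antenna list was at 0 counts in every library. The part of these shifts in the changes of replication genes was not tested.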

How the data were processed

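RNA-seq of rice SAM pools, 3 libraries of myb110 and 3 of WT, was analysed. The deposited table gives the authors' estimated counts per gene, of which between 12.262% and 13.209% per library were not whole, and the authors' FPKM. The submitters' processing notes name fastp, a read cleaner. Aligner, counter and genome build: not given in the sources used here. No sample label explains 24 columns of values, which were left out, and 6 of those 24 stand in the SAM table. That the table holds SAM libraries was taken from its name.

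The deposited estimated counts were rounded, filtered with filterByExpr (minimum count 10), scaled by TMM and tested with edgeR 4.0.16 (quasi-likelihood, robust) in R 4.3.3, with Benjamini-Hochberg adjustment over all 23167 tested genes and a threshold of 0.05. Intervals are 95% intervals of the fitted log2 change, and SE is the change divided by the root of its F statistic. CPM used the total of tested genes and TMM. Depth was 14112966 to 18896372 estimated counts per library, and the filter kept genes holding at least 99.9% of them. Alternatives were DESeq2 1.42.0, its size factors in edgeR, other filters, a replicate block, limma 3.58.1 on log2(FPKM + 0.1) and log2(FPKM + 1), and leaving out each library. On simulated data with 23167 genes, edgeR called 56 of the 67 genes set to differ 1.5-fold, 66 of the 67 set to differ 2-fold and 11 genes set not to differ.

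Members were grouped by the deposited orthology number and description. Named genes were the called members, the most abundant member of each group and up to 3 called genes each way of each related list. The rule for the members reads only the annotation, but the pathway and the lists were chosen with earlier results of these data known. Other members are named as examples. Rows whose fractional counts summed to within 0.01 of a whole number in every library were treated as sharing reads. No sequence or coordinate is shown, since no genome build was used.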

Additional observations from a re-analysis of the deposited data

How the results depend on the processing

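The number of called genes of all 23167 was 5233 and stayed within 1.5 times of that under each setting, between 3885 in DESeq2 and 5584 with no filter, and between 4185 and 4698 when 1 library was left out. The number of called DNA replication genes was 15. It was 15 with DESeq2 size factors, 11 in DESeq2, 16 with no filter, 15 with a minimum count of 30, 9 in limma on log2(FPKM + 0.1) and 10 in limma on log2(FPKM + 1). It ranged from 9 to 16 when 1 library was left out, with 9 without WT replicate 1. The cause of the lower counts in limma was not tested, and leaving out a library leaves fewer samples. The median log2 change of the members, 0.03, was between 0.02 and 0.03 under all settings. With rows that share reads taken as 1 unit, a setting chosen after seeing the data, 13 of 63 units were called. The sum of POLA1 and Os01g0868400 changed by 0.0684, the opposite sign to the POLA1 row alone. The labels do not say whether libraries of the genotypes with the same replicate number were sampled together. Deviations of libraries with the same number correlated at -0.0469, -0.0407 and 0.0107, which shows no strong shared shift. Libraries with different numbers were not compared in this way. With replicate number as a block, 4976 of all genes and 15 members were called, and of the named genes TOP6B alone lost its call. Os07g0190600 has no value with a minimum count of 30. The alternatives for the blade and for the comparison of tissues were not run. Depth limits the rows with few counts, above all Os07g0190600 and MSTRG.12523, and p-values cover the spread between 3 pools per genotype.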
